A study of Arabidopsis thaliana with 8 samples.

Results

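A group of 9 Arabidopsis thaliana genes that belong to the core response of plants to low oxygen was followed across plants of different lime preference that had been grown with much or little calcium chloride. They are AT3G10040 (HRA1), AT3G03270, AT2G17850, AT3G27220, AT4G27450, AT4G10270, AT1G19530, AT4G39675 and AT1G33055, which are 9 of the 13286 genes that a probe set of the ATH1 array names alone. The genes were picked by name, from general knowledge of the low-oxygen response, after their values on these arrays were known: they were conspicuous for a CaCl2 response that ran opposite ways in lines of opposite soil preference. That difference between lines in the CaCl2 response therefore chose the genes, and it is described below without a test and supports nothing. The choice used no numerical threshold. All 9 passed the filter on low signal.

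The series holds 8 arrays of total RNA from whole plants, with 1 array for each of 4 lines at 12.5 mM and at 1 mM CaCl2. The lines are a lab calcicole, a wild line from high soil pH, a lab calcifuge and a wild line from low soil pH. Calcicoles are plants of lime-rich ground, and calcifuges are plants that avoid it. Following the soil named in their labels, the lab calcicole with the wild line from high soil pH is called the calcicole class here, and the lab calcifuge with the one from low soil pH the calcifuge class, and the wild lines are shortened to high-pH and low-pH line. All plants shared sterile sand wetted daily, diluted Long Ashton nutrients, short days, a growth room and a normal atmosphere, so no group had a low-oxygen treatment. The labels give neither the genotype behind each line name, nor the plants' age, nor how many plants went into an array. Every array is numbered as the first replicate, so a line at 1 dose has no replicate, and the p-values below measure only the spread between these 8 samples.

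When oxygen runs short, plant cells lose much of their respiratory energy supply and turn to fermentation. In Arabidopsis the switch is set by group VII ethylene response factors, which oxygen-dependent plant cysteine oxidases and the N-degron pathway mark for breakdown while oxygen is present. Without oxygen the factors persist and turn on a small set of genes, the core hypoxia response, in roots and shoots alike. HRA1 is a trihelix transcription factor of that set that restrains the group VII factor RAP2.12. Several other core genes encode small proteins whose function is unknown.

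The deposited MAS5 signals had been scaled to the same level on every array, with medians between 42.4 and 47.8. Changes are given as differences of log2(signal + 2.507), where 2.507 is the 10th percentile of all gene signals. They understate the change of weak signals. Two-sided tests were made with limma across 13647 probe sets, with Benjamini-Hochberg adjustment over all of them. Levels of different probe sets are not set against each other, because probe sets differ in brightness at equal RNA. In RNA from whole plants, fewer cells of a type and less RNA per cell cannot be told apart.

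The regulator HRA1 had a signal of 59.0 at 12.5 mM and 18.2 at 1 mM CaCl2 in the lab calcicole, and 32.6 at 12.5 mM and 12.8 at 1 mM in the wild high-pH line. The lab calcifuge had 39.1 at 12.5 mM and 72.4 at 1 mM, and the wild low-pH line had 16.7 at 12.5 mM and 50.0 at 1 mM. Within the calcicole class both 12.5 mM arrays lay above both 1 mM arrays, and within the calcifuge class both 12.5 mM arrays lay below both 1 mM arrays. The log2 change, 12.5 minus 1 mM, was 1.57 in the lab calcicole and 1.20 in the wild high-pH line, against -0.85 in the lab calcifuge and -1.45 in wild low-pH plants. HRA1 was the member with the deepest change in the wild low-pH line, where its signal was 2.74-fold lower at 12.5 mM.

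AT3G03270, of the universal stress protein family, had 571 at 12.5 mM and 364 at 1 mM in the lab calcicole, and 322 at 12.5 mM and 135 at 1 mM in the wild high-pH line. It had 589.8 at 12.5 mM and 693 at 1 mM in the lab calcifuge, and 202 at 12.5 mM and 327 at 1 mM in the wild low-pH line. The 4 lab arrays all lay above the 4 wild arrays, and the doses overlapped within each class. The log2 changes were 0.65 and 1.24 in lab calcicole and wild high-pH plants, against -0.23 and -0.69 in lab calcifuge and wild low-pH plants.

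AT2G17850, a rhodanese-like protein of the family that carries sulfur groups, had 234 at 12.5 mM and 39.1 at 1 mM in the lab calcicole, and 135 at 12.5 mM and 49.3 at 1 mM in the wild high-pH line. Its signal was 226 at 12.5 mM and 314 at 1 mM in the lab calcifuge, and 135 at 12.5 mM and 127 at 1 mM in the wild low-pH line. The calcicole class at 1 mM stood low and the remaining 6 arrays lay above it. The log2 changes were 2.50 and 1.41 in lab calcicole and wild high-pH plants, against -0.47 and 0.08 in lab calcifuge and wild low-pH plants, so the last line had nearly the same signal at both doses.

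AT3G27220, a kelch-repeat protein, varied least of the 9. It had 55.2 at 12.5 mM and 22.0 at 1 mM in the lab calcicole, and 32.5 at 12.5 mM and 18.0 at 1 mM in the wild high-pH line. The lab calcifuge had 54.7 at 12.5 mM and 52.2 at 1 mM, and the wild low-pH line had 36.3 at 12.5 mM and 41.9 at 1 mM. Again only the calcicole class at 1 mM stood low: its log2 changes were 1.24 and 0.77, against 0.06 in the lab calcifuge and -0.19 in wild low-pH plants.

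AT4G27450, with the YGL and LRDR motifs of a family related to aluminium-induced proteins, had 1014 at 12.5 mM and 155 at 1 mM in the lab calcicole, and 258 at 12.5 mM and 182 at 1 mM in the wild high-pH line. It had 508 at 12.5 mM and 1056 at 1 mM in the lab calcifuge, and 182 at 12.5 mM and 354 at 1 mM in the wild low-pH line. The change in the lab calcicole, 2.69, was much larger than the 0.49 of the wild high-pH line, while the lab calcifuge and the wild low-pH line were close at -1.05 and -0.95. The 12.5 mM arrays of the calcicole class lay above its 1 mM arrays, whereas the doses overlapped within the calcifuge class.

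AT4G10270, of the wound-responsive family, had 402 at 12.5 mM and 59.3 at 1 mM in the lab calcicole, and 134 at 12.5 mM and 24.3 at 1 mM in the wild high-pH line. The lab calcifuge had 254 at 12.5 mM and 377 at 1 mM, and the wild low-pH line had 117 at 12.5 mM and 157 at 1 mM. The calcicole class at 1 mM was again below the other 6 arrays. The log2 changes were 2.71 and 2.35 in lab calcicole and wild high-pH plants, against -0.57 and -0.42 in lab calcifuge and wild low-pH plants.

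The 3 members whose proteins have no known function had the widest swings. AT1G19530 had 481 at 12.5 mM and 43.8 at 1 mM in the lab calcicole, and 135 at 12.5 mM and 9.88 at 1 mM in the wild high-pH line. It had 331 at 12.5 mM and 908 at 1 mM in the lab calcifuge, and 93.8 at 12.5 mM and 145 at 1 mM in the wild low-pH line. The calcicole class at 1 mM stood below the other 6 arrays. The calcicole class changes were 10.4-fold and 11.1-fold in favour of 12.5 mM, and the change of the wild high-pH line was the highest of all 13647 probe sets tested in that line. The calcifuge class had 2.73-fold and 1.53-fold less signal at 12.5 mM, in lab calcifuge and wild low-pH plants.

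AT4G39675 had 228 at 12.5 mM and 2.46 at 1 mM in the lab calcicole, and 27.9 at 12.5 mM and 2.22 at 1 mM in the wild high-pH line. It had 233 at 12.5 mM and 692 at 1 mM in the lab calcifuge, and 26.0 at 12.5 mM and 70.7 at 1 mM in the wild low-pH line. Both 1 mM values of the calcicole class lay below the 2.507 added before taking logs, and no detection calls were used, so the sizes of its changes there depend on that constant. With it, the log2 changes were 5.54 and 2.68 in lab calcicole and wild high-pH plants, against -1.56 and -1.36 in lab calcifuge and wild low-pH plants. The class difference, the mean change of the calcicole class minus that of the calcifuge class, was 5.57, and it was 6.09 with 1 added and 3.77 with 16 added.

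AT1G33055 had 270.0 at 12.5 mM and 6.10 at 1 mM in the lab calcicole, and 32.4 at 12.5 mM and 6.86 at 1 mM in the wild high-pH line. It had 150.5 at 12.5 mM and 414 at 1 mM in the lab calcifuge, and 16 at 12.5 mM and 37.3 at 1 mM in the wild low-pH line. The calcicole class at 1 mM was the low group once more. The log2 changes were 4.98 and 1.90 in lab calcicole and wild high-pH plants, against -1.45 and -1.10 in lab calcifuge and wild low-pH plants.

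**Figure D1:**
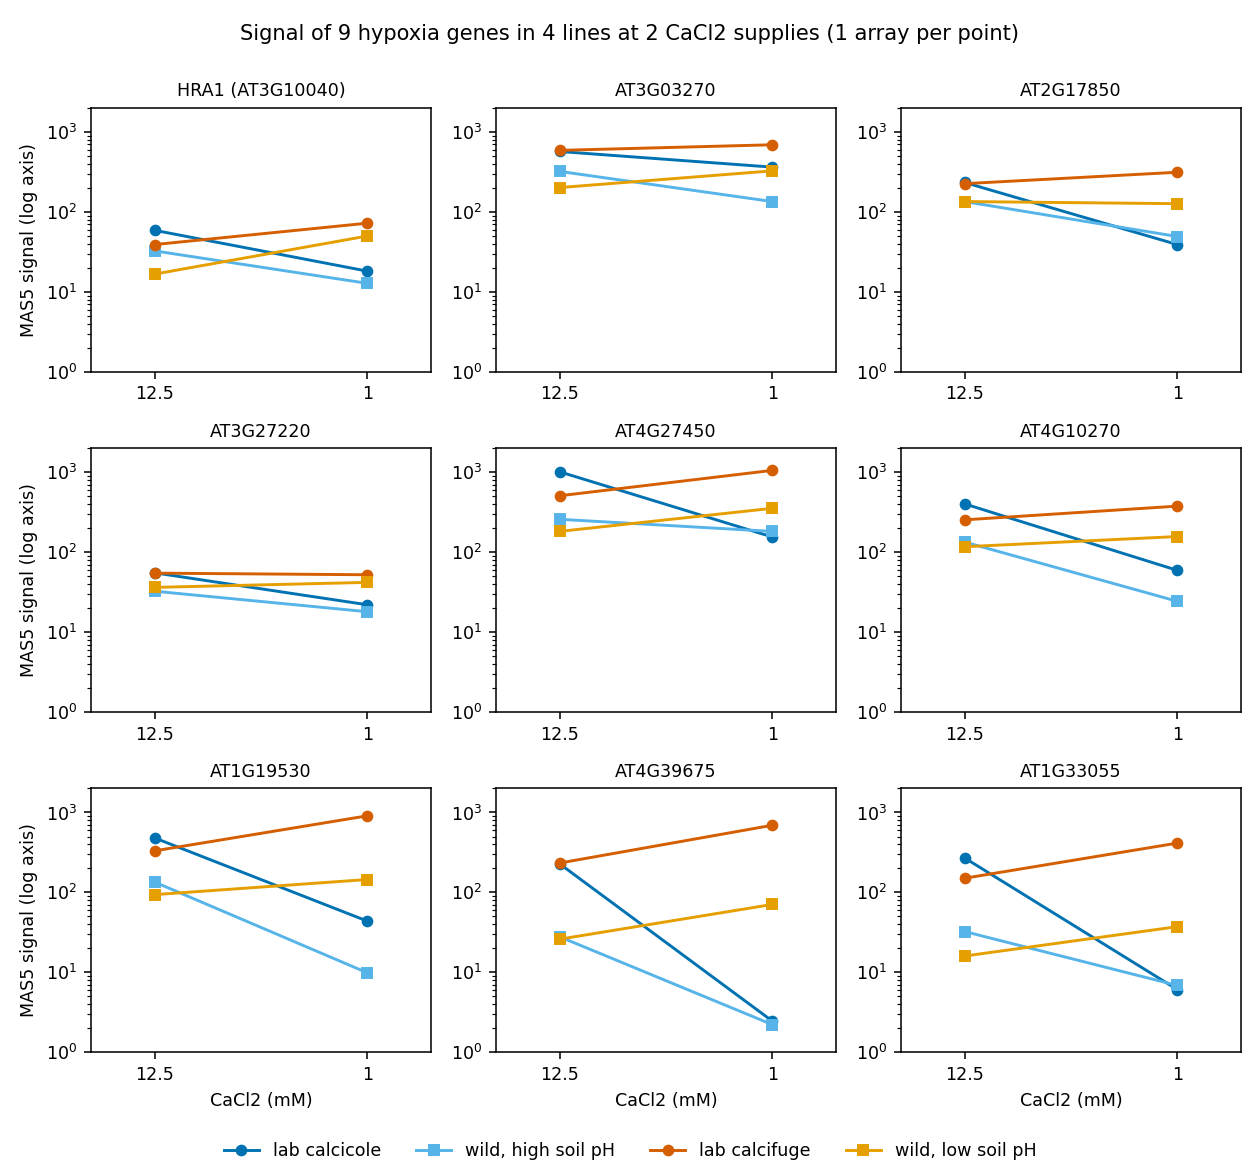
Deposited MAS5 signal (log axis) of each of the 9 genes at 12.5 mM (left) and 1 mM CaCl2 (right); each point is 1 array and each line joins the 2 arrays of a plant line. The blue lines (calcicole class) slope down towards 1 mM, to 2.46 and 2.22 for AT4G39675, while the orange lines (calcifuge class) are flat or slope up.

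Counted over the 9 genes, signals were at least 2-fold higher at 12.5 mM for 8 in the lab calcicole, where 3.28% of all tested probe sets were, and for 7 in the wild high-pH line, where 1.02% were. Signals were at least 2-fold lower at 12.5 mM for 4 of the 9 in the lab calcifuge, against 3.05% of all tested probe sets, and for 3 in the wild low-pH line, against 3.44%. No member was 2-fold lower in the lab calcicole (4.15% of all) or the wild high-pH line (3.07%), or 2-fold higher in the lab calcifuge (3.19%) or the wild low-pH line (2.95%). The median log2 change was 2.69 in the lab calcicole, 1.41 in the wild high-pH line, -0.85 in the lab calcifuge and -0.69 in wild low-pH plants. The medians of all tested probe sets in the same lines were -0.01, 0.01, 0.06 and -0.03.

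Both changes of the calcicole class exceeded both changes of the calcifuge class for 9 of 9 genes, as they did for 15.9% of all tested probe sets. For 7 of 9 the signs were opposite, up in both calcicole class lines and down in both calcifuge class lines, as for 5.97% of all. The exceptions were AT2G17850, through the 0.08 of the wild low-pH line, and AT3G27220, through the 0.06 of the lab calcifuge. These counts restate what the genes were picked on. The class difference was 1.07 for AT3G27220, 1.40 for AT3G03270, 2.15 for AT2G17850, 2.53 for HRA1 (AT3G10040), 2.60 for AT4G27450, 3.02 for AT4G10270, 4.46 for AT1G19530, 4.72 for AT1G33055 and 5.57 for AT4G39675. Ranked among the 7289 tested probe sets that name 1 gene, AT4G39675 was 1st, AT1G33055 2nd and AT1G19530 4th, and AT3G27220 was 101st. The order turns with the added constant: with 16 added the class differences were 3.78 for AT1G19530, 3.77 for AT4G39675 and 3.44 for AT1G33055.

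**Figure D2:**
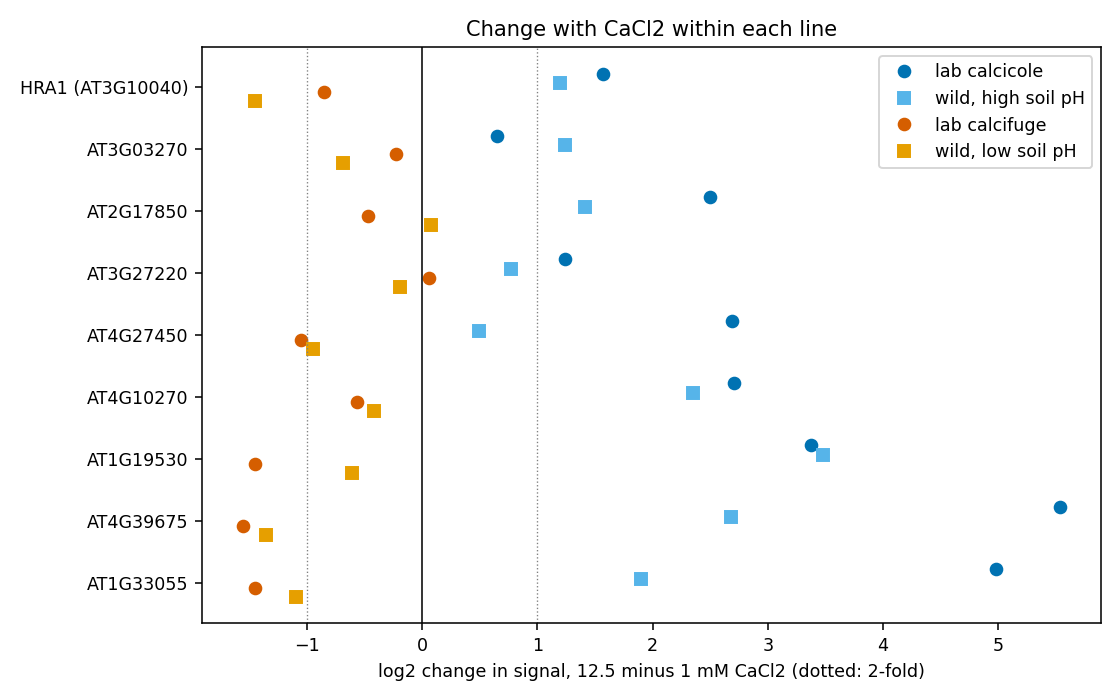
Change in log2(signal + 2.507), 12.5 minus 1 mM CaCl2, for each gene in each line; 1 point is the difference of 2 arrays, and dotted lines mark 2-fold. All blue points (calcicole class) lie right of all orange points (calcifuge class) within every gene, with values between 0.49 and 5.54 against values between -1.56 and 0.08.

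The paired lines lay closer at 12.5 mM than at 1 mM. At 12.5 mM, 0 of the 9 genes were 2-fold apart in either direction between the lab calcicole and the lab calcifuge, where 4.21% of all tested probe sets were at least 2-fold higher and 7.23% at least 2-fold lower. Between the wild high-pH and the wild low-pH line at 12.5 mM, 0 of 9 were 2-fold apart, where 1.68% of all were higher and 2.93% lower. With shares that low over all, a count of 0 of 9 does not set the members apart. The closest to the 2-fold limit was AT4G27450, 1.99-fold higher in the lab calcicole than in the lab calcifuge. At 1 mM, 8 of 9 were at least 2-fold lower in the lab calcicole than in the lab calcifuge, against 7.06% of all, the exception being AT3G03270, which was 1.90-fold lower. In the wild pair at 1 mM, 8 of 9 were at least 2-fold lower in the high-pH line, against 3.47% of all, the exception being AT4G27450, which was 1.93-fold lower.

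The median difference, calcicole minus calcifuge, was 0.54 in the lab pair and 0.50 in the wild pair at 12.5 mM, and -2.75 in the lab pair and -1.78 in the wild pair at 1 mM. Over all tested probe sets the medians at 12.5 mM were -0.03 in the lab pair and 0.02 in the wild pair. At 1 mM they were 0.06 in the lab pair and 0.0 in the wild pair. AT4G39675 was 1.02-fold lower in the lab calcicole than in the lab calcifuge at 12.5 mM. At 1 mM its signals were the 2.46 of the lab calcicole and the 692 of the lab calcifuge, and the size of that fold is set by the added constant. For AT1G19530 at 1 mM the calcicole line was 19.6-fold lower in the lab pair and 11.9-fold lower in the wild pair.

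The range over the 4 lines was smaller at 12.5 mM than at 1 mM for 9 of 9 genes, as it was for 47.8% of all tested probe sets. Its median over the 9 genes was 1.76 at 12.5 mM and 2.93 at 1 mM on the log2 scale, against 0.75 and 0.73 over all tested probe sets. The contrast was wide for AT4G39675, with 3.05 at 12.5 mM and 7.20 at 1 mM, and for AT1G19530, with 2.33 and 6.20. With 16 added these ranges were 2.57 and 5.28 for AT4G39675 and 2.18 and 5.16 for AT1G19530. AT4G27450 had nearly the same range at both doses, 2.46 at 12.5 mM and 2.75 at 1 mM. Line differences at 1 mM enter the class difference that chose the genes, so these values are a description as well.

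**Figure D3:**
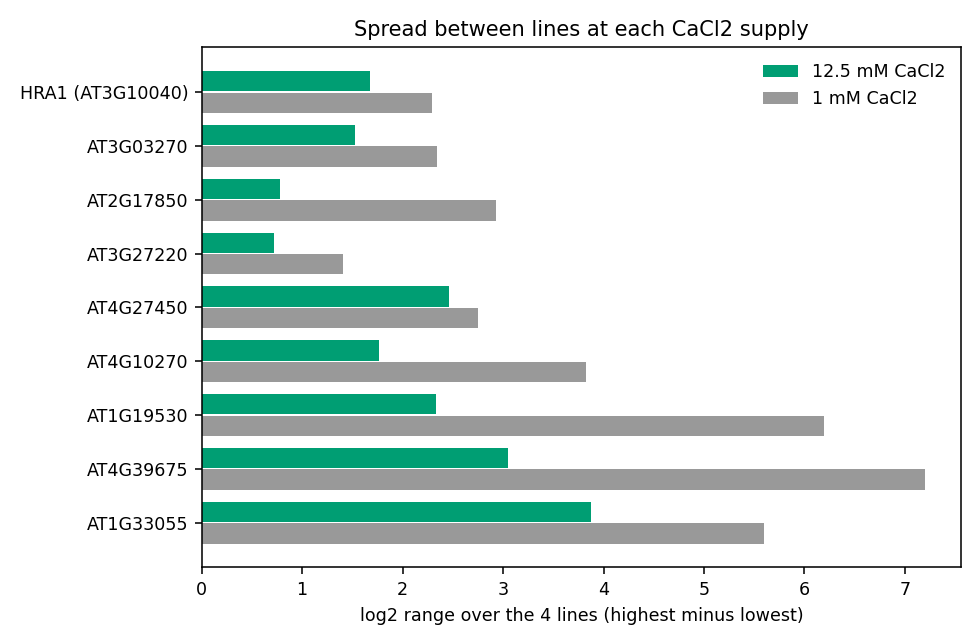
Log2 range over the 4 lines (highest minus lowest array) at 12.5 mM (green, upper bar) and 1 mM CaCl2 (grey, lower bar) for each gene. The grey bar is the longer in every gene, on this scale by the most for AT4G39675 (3.05 at 12.5 mM against 7.20 at 1 mM) and by the least for AT4G27450 (2.46 at 12.5 mM against 2.75 at 1 mM).

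The order of the 8 arrays was alike across the genes. The lab calcifuge at 1 mM was the highest array for 7 of 9, as for 10.6% of all tested probe sets, and for AT4G10270 and AT3G27220 the lab calcicole at 12.5 mM was highest instead. The wild high-pH line at 1 mM was the lowest array for 6 of 9, against 9.16% of all. For AT1G33055, AT2G17850 and AT4G27450 the lowest was the lab calcicole at 1 mM. In AT4G39675 these 2 arrays had 2.22 and 2.46, both below the added constant of 2.507, so their order carries little weight. The 2 lowest arrays were the 2 calcicole class arrays at 1 mM for 6 of 9, against 2.89% of all. In HRA1 the wild low-pH line at 12.5 mM, with 16.7, came between them, in AT3G03270 every lab array lay above every wild array, and in AT4G27450 the wild low-pH line at 12.5 mM, with 182, stood next to the wild high-pH line at 1 mM. With 1 array per line and dose, whether neighbours in these orders differ beyond their spread cannot be tested. Low calcicole class and high calcifuge class arrays at 1 mM are parts of the class difference that chose the genes. The counts above therefore restate that choice in part.

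The dose effect averaged over lines, the lab to wild difference and the lab to wild difference in the dose effect did not choose the genes, and they were tested. The first question was whether 12.5 mM CaCl2 shifted the genes averaged over the 4 lines. No member passed in limma: 0 of 9 had an adjusted p under 0.05 and 0 of 9 an unadjusted p under 0.05, against 0.0147% and 13% of all tested probe sets. All 9 estimates, 12.5 minus 1 mM, lay above 0, between 0.12 for HRA1 and 1.33 for AT4G39675, with a median of 0.88 against 0.01 over all. AT2G17850, with the smallest p, was estimated at 0.88 ± 0.45 (SE, 8 arrays), and its adjusted p in limma was 0.464. Without either lab calcicole array 5 of 9 estimates lay above 0, with a median of 0.11. Without either array of the wild high-pH line 7 of 9 did, with a median of 0.44. The median was 1.33 without either lab calcifuge array. The spread around this mean contains the opposite changes of the classes, so the counts of 0 of 9 are not independent of the choice.

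The second question was whether lab lines differ from wild lines. One gene passed: AT3G03270 rose in the lab lines, 2.32-fold above the wild lines, by 1.21 ± 0.31 on the log2 scale (SE, 4 arrays against 4), with an adjusted p in limma of 0.0383. That is 1 of 9, where 15.9% of all tested probe sets passed and 8.18% passed as higher in lab lines, so the share is close to the background. Its 4 lab arrays lay above its 4 wild arrays, as they did for 8.25% of all tested probe sets. The call was lost when any of the 6 arrays other than the wild high-pH line at 12.5 mM and the wild low-pH line at 1 mM was left out, with adjusted p between 0.0651 and 0.13. Over all alternatives the adjusted p of this gene ran between 0.0156 and 0.13.

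All 9 estimates of lab minus wild were above 0, with a median of 1.21 against 0.02 over all tested probe sets and a range from 0.46 for AT3G27220 to 2.32 for AT4G39675 and AT1G33055. With 1 array left out all 9 stayed above 0, and the median ran from 0.72 without the lab calcicole at 12.5 mM to 1.85 without the lab calcicole at 1 mM; it was 0.75 without the lab calcifuge at 1 mM and 0.80 without wild low-pH plants at 12.5 mM. Without both lab calcifuge arrays 8 of 9 lay above 0. At an unadjusted p under 0.05 there were 3 of 9, against 33.6% of all. Each lab line lay above its wild counterpart of the same class at both doses for 6 of 9 genes, against 18.8% of all. The exceptions were AT1G33055, AT2G17850 and AT4G27450, in which the lab calcicole at 1 mM was below the wild high-pH line at 1 mM. AT4G39675 was among the 6 through signals of 2.46 against 2.22 in those 2 arrays, both below the added constant of 2.507. The gap was wide at 12.5 mM, where the lab calcicole exceeded the wild high-pH line at least 2-fold for 5 of 9 (8.07% of all) and the lab calcifuge exceeded the wild low-pH line for 7 of 9 (7.49% of all). At 1 mM the lab calcifuge exceeded the wild low-pH line at least 2-fold for 7 of 9 (4.78% of all), and the lab calcicole exceeded the wild high-pH line for 3 of 9 (5.99% of all).

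The count of lab to wild calls depends on the model. When a term for the class by dose difference was added, which takes the pattern that chose the genes out of the residual spread, 6 of 9 passed in limma with the same estimates, where 14.2% of all tested probe sets passed. Besides AT3G03270, with an adjusted p of 0.0156, these were AT1G19530 (log2 difference 2.03, adjusted p 0.00679), AT4G10270 (1.28, 0.0103), AT4G39675 (2.32, 0.0261), AT1G33055 (2.32, 0.0296) and HRA1 (0.72, 0.0440). Since the genes were picked for fitting that term, their residual spread is small by choice, and the count of 6 is not independent of the choice. In the main fit that pattern stays in the residual spread, so the count there is not independent of the choice either. Without the filter on low signal, 0 of 9 passed, where 2.02% of all did, and the adjusted p of AT3G03270 was 0.116. Without the lab calcicole at 1 mM, 3 of 9 passed, where 6.71% of all did.

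The third question was whether the CaCl2 response differs between lab and wild lines. No member passed in limma, 0 of 9 at an adjusted p under 0.05 and 0 of 9 at an unadjusted p under 0.05, against 0.0% and 5.03% of all tested probe sets. The estimates, lab minus wild, ran from -0.47 ± 1.78 for AT1G19530 to 1.37 ± 1.99 for AT1G33055 (SE, 8 arrays, 2 residual degrees of freedom). The median was 0.36, with 7 of 9 above 0. Without either lab calcicole array 0 of 9 were above 0 and the median was -1.21, and without either array of wild low-pH plants 1 of 9 was, with a median of -0.70. Without either array of the wild high-pH line 9 of 9 were above 0, with a median of 1.58, and without either lab calcifuge array 9 of 9, with a median of 1.76. Errors of that size leave room for large differences in either direction. The spread behind them contains the class difference that chose the genes, so the count of 0 of 9 is not independent of the choice. With an array or line left out, that class difference also enters the estimates.

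Between lines of opposite class, averaged over doses, no member passed in limma. For the lab calcicole minus the lab calcifuge 0 of 9 passed, with 0 at an unadjusted p under 0.05, against 4.53% and 23.2% of all tested probe sets. The estimates lay between -3.58 ± 1.55 (AT4G39675, adjusted p in limma 0.220) and -0.48 ± 0.43 (AT3G03270, adjusted p 0.545). For the wild high-pH minus the wild low-pH line 0 of 9 passed, with 0 at an unadjusted p under 0.05, against 0.33% and 9.0% of all, and the estimates ran from -1.93 ± 1.55 for AT4G39675 to -0.22 ± 0.81 for AT4G27450 (SE, 2 arrays against 2). All 9 estimates were below 0 in both pairs. Their medians were -0.98 in the lab pair and -0.63 in the wild pair, against 0.01 over all tested probe sets in each pair. The count of 9 below 0 rests on the 1 mM arrays. In the lab pair 5 of 9 were below 0 without the lab calcicole at 1 mM (median -0.06) and 7 of 9 without the lab calcifuge at 1 mM (median -0.17). In the wild pair 7 of 9 were below 0 without the high-pH line at 1 mM (median -0.09) and 5 of 9 without the low-pH line at 1 mM (median -0.13). Leaving out a 12.5 mM array of a pair moved its median to between -2.48 and -2.04 in the lab pair and between -1.5 and -1.13 in the wild pair. With the class by dose term added, AT1G19530 (-1.88, adjusted p in limma 0.0227) and AT4G39675 (-3.58, adjusted p 0.0366) passed in the lab pair, where 4.13% of all tested probe sets did, and none in the wild pair, where 0.234% did. The genes were picked for fitting that term, and the line difference at 1 mM enters it, so these calls are not independent of the choice. Without the term, the spread behind the estimates contains the class difference that chose the genes. The counts of 0 of 9 in both pairs are therefore not independent of the choice either.

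**Figure D4:**
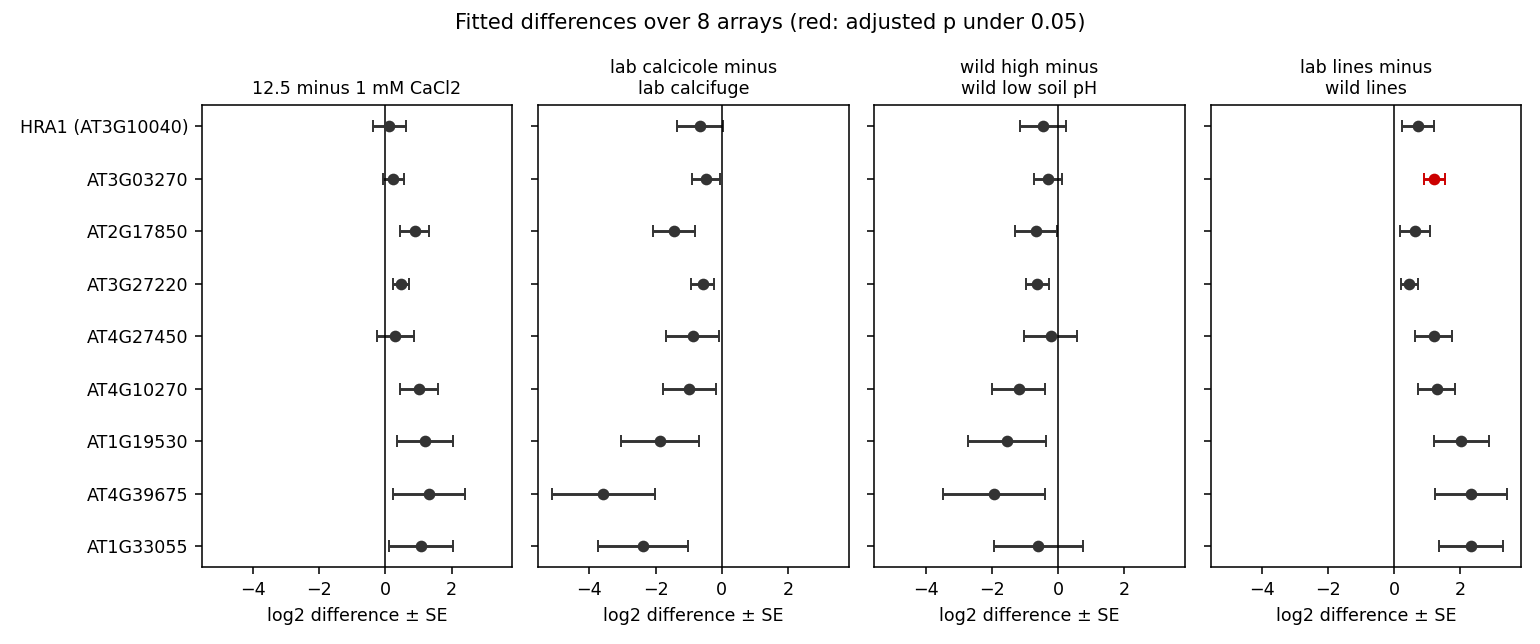
Log2 differences estimated by limma over the 8 arrays, with standard errors, for 12.5 minus 1 mM CaCl2, the 2 line pairs and lab minus wild lines. The single red point, AT3G03270 in lab minus wild lines at 1.21 ± 0.31, is the only estimate with an adjusted p under 0.05, and the bars of most other estimates are longer.

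The 9 profiles over the arrays resembled each other. Pearson's r between members had a median of 0.909 over 36 pairs, with a range of 0.705 to 0.988, on 8 arrays that share 4 lines. AT1G19530 and AT4G10270 were the most alike (0.988), followed by AT1G33055 and AT4G27450 (0.978) and by AT4G39675 and AT1G33055 (0.972). AT3G03270 was the least alike to 6 of the others, down to 0.705 with AT2G17850. HRA1 was closest to AT4G27450, at 0.912. These values describe genes that were chosen for a common pattern.

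Among 788 other genes with a log2 range of at least 2 over the arrays, 3 reached r of 0.9 with the mean standardised profile of the 9 members. These were AT5G66985 (0.956), AT5G10040 (0.926) and AT3G29970 (0.922), and all 3 stand in the list of further core hypoxia genes. That list was written with earlier results of these data known. AT5G10040 had 573 at 12.5 mM and 10.2 at 1 mM in the lab calcicole, 102 at 12.5 mM and 14.8 at 1 mM in the wild high-pH line, 169 at 12.5 mM and 322 at 1 mM in the lab calcifuge, and 106 at 12.5 mM and 114 at 1 mM in the wild low-pH line. Its 1 mM arrays of the calcicole class stood far below the other 6, as in the members. AT5G66985 had 420.1 at 12.5 mM and 14.5 at 1 mM in the lab calcicole, 77.6 at 12.5 mM and 16.5 at 1 mM in the wild high-pH line, 249 at 12.5 mM and 322 at 1 mM in the lab calcifuge, and 70.1 at 12.5 mM and 56.7 at 1 mM in the wild low-pH line. AT3G29970 had 456 at 12.5 mM and 52.4 at 1 mM in the lab calcicole, 59.5 at 12.5 mM and 10.2 at 1 mM in the wild high-pH line, 363 at 12.5 mM and 252 at 1 mM in the lab calcifuge, and 101 at 12.5 mM and 135 at 1 mM in the wild low-pH line. Both had their lowest signals on the calcicole class arrays at 1 mM.

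After these 3 the likeness dropped to 0.833 for AT1G26250, 0.825 for AT1G62500, 0.805 for the osmotin-like gene OSM34, 0.803 for AT5G48430, 0.799 for AT2G01220, 0.790 for the signalling peptide gene CLE41 and 0.786 for AT5G19890. The profiles most opposite to the members were those of AT1G33811 (-0.864), the branched-chain aminotransferase gene BCAT4 of methionine-derived glucosinolate synthesis (-0.840), AT2G31790 (-0.831), AT4G27657 (-0.809) and AT1G52810 (-0.804). BCAT4 had 742 at 12.5 mM and 1620.0 at 1 mM in the lab calcicole, 1777 at 12.5 mM and 2152 at 1 mM in the wild high-pH line, 685 at 12.5 mM and 477 at 1 mM in the lab calcifuge, and 738 at 12.5 mM and 1001 at 1 mM in the wild low-pH line.

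Most of the other core hypoxia genes that could be read did not share the size of the members' class difference. Of 45 further core genes listed, 18 were named alone by a probe set and 14 were tested. The list was written from general knowledge with earlier results of these data known, so its counts give no independent support. The class difference had a median of 0.93 over the 14, against -0.04 over all tested probe sets, lay above 0 for 12 of 14 (45.7% of all) and was 1 or more for 5 of 14 (1.92% of all). The 5 were AT5G10040 (4.56), AT5G66985 (3.39), AT3G29970 (2.62), the calmodulin-like gene CML38 (1.35) and AT5G44730 (1.02). AT3G61930 ran the other way, at -2.0, and the lipocalin gene TIL was near 0, at -0.12. For 4 of 14 the signs were opposite, up in both calcicole class lines and down in both calcifuge class lines, against 5.97% of all. These were AT5G10040, AT5G42200, AT1G03610 and AT4G17260. The changes of AT4G17260 were as small as 0.06 in the lab calcicole, 0.13 in the wild high-pH line and -0.03 in the lab calcifuge. CML38 had 40.1 at 12.5 mM and 24.7 at 1 mM in the lab calcicole but 17.7 at 12.5 mM and 36.0 at 1 mM in the wild high-pH line, so the calcicole class was not of one direction there.

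**Figure D5:**
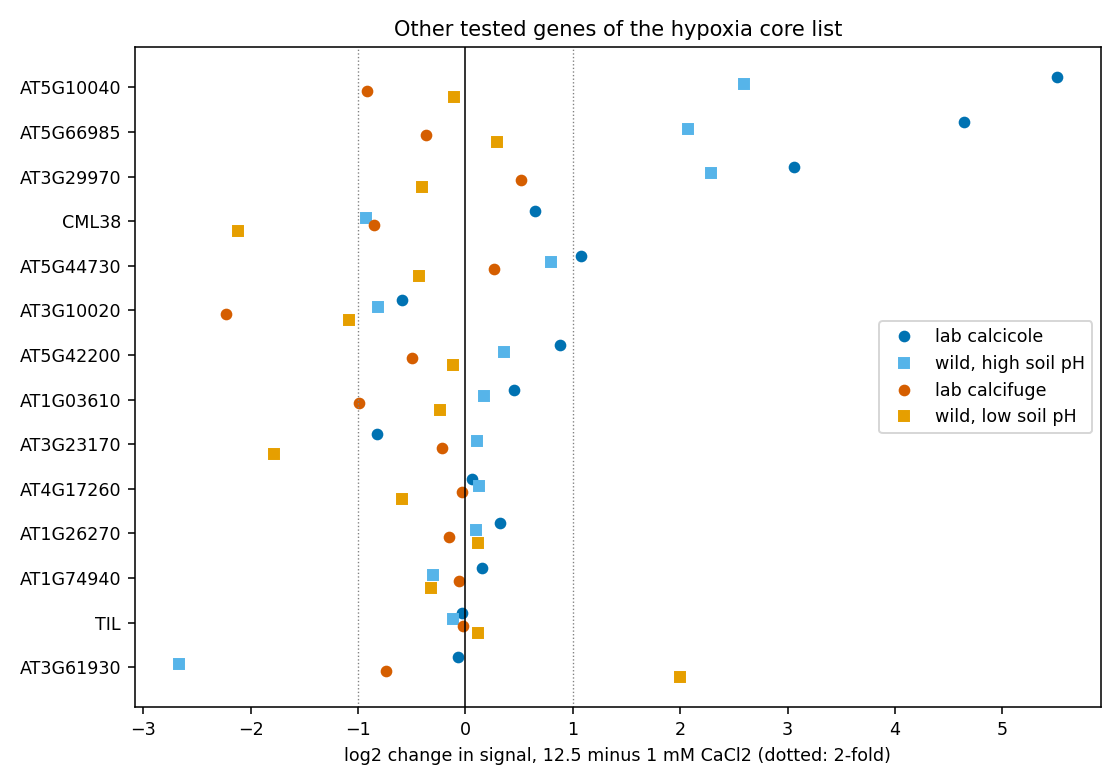
Change in log2(signal + 2.507), 12.5 minus 1 mM CaCl2, in each line for the 14 other tested core hypoxia genes, sorted by class difference from 4.56 (AT5G10040, top) to -2.0 (AT3G61930, bottom). Only the top 3 genes have calcicole class points (blue) beyond 2-fold in both lines, and most of the others lie within 2-fold in most lines.

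In the tests, 0 of the 14 passed for 12.5 minus 1 mM CaCl2 (0.0147% of all) and 0 for the wild pair (0.33% of all). TIL alone passed in the lab pair, where 4.53% of all tested probe sets did. It was higher in the lab calcicole than in the lab calcifuge by 1.03, with an adjusted p in limma of 0.0333. In lab minus wild lines 2 of 14 passed, AT3G29970 at 1.93 (adjusted p in limma 0.0468) and AT4G17260, listed as lactate dehydrogenase, at 0.65 (adjusted p 0.0419). Over all tested probe sets 15.9% passed there and 8.18% passed as higher, so the share is close to the background.

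The enzymes of fermentation and sucrose breakdown were described by 4 of 22 listed genes. The pyruvate decarboxylase gene PDC2 had 461 at 12.5 mM and 483 at 1 mM in the lab calcicole, 99.5 at 12.5 mM and 94.9 at 1 mM in the wild high-pH line, 378 at 12.5 mM and 268 at 1 mM in the lab calcifuge, and 102 at 12.5 mM and 97.6 at 1 mM in the wild low-pH line. It was thus high on all lab arrays and low on all wild arrays, and it rose in lab lines over wild lines by 1.95 with an adjusted p in limma of 0.00213. With AT4G17260, 2 of the 4 genes passed there as higher, where 8.18% of all tested probe sets did. The class difference of PDC2, -0.28, had none of the members' size, and the median class difference of the 4 genes was -0.12. Of 18 listed genes of oxygen sensing and its transcription factors 1 was named alone, the methionine aminopeptidase gene MAP1A, with a class difference of 0.45. The alcohol dehydrogenase ADH1, PDC1, the group VII factors and the plant cysteine oxidases were not analysed here.

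Relatives of the members by protein family were listed as 28 genes, of which 23 were named alone and 20 tested. Their median class difference was -0.03, with a range of -0.35 to 1.31. The class difference was 1 or more for 1 of 20, AT3G15450, a protein with the YGL and LRDR motifs of AT4G27450. AT3G15450 fell at 12.5 mM in every line, whereas AT4G27450 rose in both calcicole class lines. The log2 changes of AT3G15450 were -1.01 (lab calcicole), -0.74 (wild high-pH), -2.89 (lab calcifuge) and -1.49 (wild low-pH). Its class difference thus reflects a smaller fall in the calcicole class. In lab minus wild lines 3 of the 20 passed as higher, where 8.18% of all tested probe sets did, and 2 as lower. The 3 were the universal stress protein genes AT3G62550 (0.95, adjusted p in limma 0.0323), AT2G47710 (0.83, 0.0208) and AT3G17020 (0.61, 0.0418). The 2 were AT4G27700, rhodanese-like as AT2G17850 is (-1.03, adjusted p in limma 0.0145), and AT5G43830, with the YGL and LRDR motifs (-0.53, 0.047). In either direction 15.9% of all tested probe sets passed. Of the 11 universal stress protein relatives listed 10 were tested, and the other 7 did not pass, down to AT3G11930 at -0.37.

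The tested genes next to the members on the chromosomes had small class differences. Of 18 direct neighbours 12 were named alone and 8 tested, and their class differences lay between -0.48 (AT3G27210) and 0.66 (NAC014).

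Sugar starvation genes were read through 3 of 18, with class differences between 0.12 and 0.59 and a median of 0.18. The basic leucine zipper gene BZIP53 passed in lab minus wild lines at 0.78 (adjusted p in limma 0.0305). It was 1 of 3 to pass there as higher, where 8.18% of all tested probe sets did. The touch, wound and oxidative stress list was represented by 1 of 19 genes, the zinc finger gene STZ. STZ had 136 at 12.5 mM and 689.9 at 1 mM in the lab calcicole, 29.1 at 12.5 mM and 371 at 1 mM in the wild high-pH line, 253 at 12.5 mM and 227 at 1 mM in the lab calcifuge, and 64.7 at 12.5 mM and 349 at 1 mM in the wild low-pH line. Its class difference was -1.83, opposite in sign to that of the members, but the classes did not separate. The log2 change was -2.32 in the lab calcicole, -3.56 in the wild high-pH line and -2.39 in the wild low-pH line. Only the lab calcifuge, at 0.16, did not fall at 12.5 mM.

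Organ markers were read on the same arrays, because the share of root in a whole plant can vary. Of 19 root markers 5 were named alone, and 3 of these passed the filter on low signal. EXPA7 and EXPA18 did not pass it but are part of the sums below. The lowest root marker signal was 4.5, in the lab calcicole at 1 mM, and no detection calls were used. Green leaf markers were strong, with 5 of 12 named alone. None of the 8 flower and seed markers was named alone, and the senescence gene SAG101, 1 of 5 listed, had a class difference of -0.15. SAG101 passed as higher in lab minus wild lines at 0.68 (adjusted p in limma 0.0496), where 8.18% of all tested probe sets did. The root marker signal summed to 286 at 12.5 mM and 112 at 1 mM in the lab calcicole, and to 322 at 12.5 mM and 356 at 1 mM in the wild high-pH line. It summed to 984 at 12.5 mM and 626 at 1 mM in the lab calcifuge, and to 456 at 12.5 mM and 319.6 at 1 mM in the wild low-pH line. The sum was thus higher at 12.5 mM in the lab calcicole and in both calcifuge class lines, and slightly lower at 12.5 mM in the wild high-pH line. PYK10, a root beta-glucosidase gene, had 203 at 12.5 mM and 49.2 at 1 mM in the lab calcicole and 829.9 at 12.5 mM and 247 at 1 mM in the lab calcifuge. Without PYK10, a choice made after seeing the data, the sum of the other 4 was 82.7 at 12.5 mM and 63.0 at 1 mM in the lab calcicole, and 142 at 12.5 mM and 225 at 1 mM in the wild high-pH line. It was 155 at 12.5 mM and 379.5 at 1 mM in the lab calcifuge, and 127 at 12.5 mM and 91.5 at 1 mM in the wild low-pH line, so the direction turned in the lab calcifuge. The part of these root markers in the members' changes was not tested.

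The leaf marker signal summed to 10885 at 12.5 mM and 14318 at 1 mM in the lab calcicole, 20752 at 12.5 mM and 19761 at 1 mM in the wild high-pH line, 12195 at 12.5 mM and 17151 at 1 mM in the lab calcifuge, and 18945 at 12.5 mM and 20271 at 1 mM in the wild low-pH line. All 4 lab arrays lay below all 4 wild arrays, and 2 of the 5 markers fell in lab lines against wild lines, PRK by 1.00 (adjusted p in limma 0.0131) and SBPASE by 1.16 (adjusted p 0.0115), both enzymes of carbon fixation. Over all tested probe sets 15.9% passed in lab minus wild lines, in either direction. These leaf values ran opposite to the members, whose estimates were higher in lab lines. The part of the leaf markers in that difference was not tested.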

How the data were processed

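Total RNA of whole plants had been hybridised to ATH1 arrays, 1 array for each of 4 lines at each of 2 CaCl2 doses. The deposited values are MAS5 intensity values on a linear scale, per the submitters' processing notes, whose MAS5 version is not given in the sources used here. No detection calls were used. Of 22810 probe sets 64 were controls, and of the remaining 22746, 13513 named 1 gene, 503 several and 8730 none. Of those naming 1 gene, 13436 were matched to a RefSeq locus (TAIR10.1), which was used for symbols and neighbours. The name HRA1 and the protein families of the members are general knowledge.

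The values were kept as scaled, with the same 2% trimmed mean on every array. The constant 2.507 was added, log2 taken, and the lowest 40% by mean left out, which left 13647. limma 3.58.1 (R 4.3.3) fitted line plus dose with 3 residual degrees of freedom. The lab to wild difference in dose effect was fitted with 2. The threshold was an adjusted p of 0.05. The procedure was tested on simulated data. Descriptions and figures were made in Python 3.11.15 with pandas 2.3.3 and matplotlib 3.10.9.

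The named genes are the 9 members, genes of lists written from general knowledge, and the 10 most alike and 5 most opposite genes with a log2 range of at least 2. Members and lists were chosen with earlier results of these data known. No replicate of a line and dose exists, and the number of arrays limits the precision. Alternatives were 2 other scalings, constants of 1 and 16, no filter, a mean-variance trend, a threshold of 0.1, a class by dose term, each array and each line left out, and probe sets naming 1 gene only. The last was added after seeing the data, as was a root marker sum without PYK10.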

Additional observations from a re-analysis of the deposited data

Results flagged for a closer look

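For 7 of the 9 genes the CaCl2 change had opposite signs in the 2 classes on every pair of arrays: signals were higher at 12.5 mM than at 1 mM in both calcicole class lines and lower at 12.5 mM in both calcifuge class lines. The difference, the mean change of the calcicole class minus that of the calcifuge class, was 5.57 for AT4G39675, 4.72 for AT1G33055, 4.46 for AT1G19530, 3.02 for AT4G10270, 2.60 for AT4G27450, 2.53 for AT3G10040 (HRA1) and 1.40 for AT3G03270 on the log2 scale. The difference was not tested, because the genes were chosen on it. It holds for 5.97% of all tested probe sets. No group held enough arrays to look for outlying samples.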

How the results depend on the processing

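No paired analysis was possible because replicate numbers pair no arrays here: each line and dose has 1 array and all carry the same number. The fits themselves compare the doses within lines, through the line term. Many alternative values of the single-gene results could not change sign. No filter, the mean-variance trend, the threshold, the class by dose term and probe sets naming 1 gene leave the estimate as it is. So does leaving out lines outside a line pair. For the CaCl2 response, leaving out 1 array of a line or both gives the same value. The share that changed sign is therefore no measure of stability. For 54 single-gene results, 83 of 1071 alternative values changed sign, 82 of them with an array or a line left out, 15 of these without the lab calcicole at 1 mM. The exception was AT3G03270 in the lab minus wild difference in CaCl2 response, -0.07, against 0.02 with quantile normalization. The cause was not tested. Over these omissions the CaCl2 response, 12.5 minus 1 mM, ran from -0.37 to 0.64 for AT3G10040, from -0.08 to 2.29 for AT4G39675, from -0.22 to 1.93 for AT1G33055, from -0.09 to 0.55 for AT3G03270 and from -0.50 to 0.74 for AT4G27450. The lab calcicole minus the lab calcifuge ran from -2.11 to 0.15 for AT4G10270, from -1.62 to 0.32 for AT3G10040, from -4.98 to 0.22 for AT1G33055 and from -2.48 to 0.72 for AT4G27450. The wild high-pH minus the wild low-pH line ran from -1.5 to 0.59 for AT3G10040, from -2.04 to 0.87 for AT1G33055, from -0.96 to 0.37 for AT3G03270 and from -1.06 to 0.61 for AT4G27450. Lab minus wild lines ran from -0.10 to 1.34 for AT2G17850. The lab minus wild difference in CaCl2 response spanned 0 for all 9: from -2.88 to 1.95 for AT1G19530, -1.84 to 4.59 for AT1G33055, -1.21 to 1.76 for AT2G17850, -1.03 to 0.89 for AT3G03270, -0.84 to 1.82 for AT3G10040, -0.22 to 0.95 for AT3G27220, -1.53 to 1.75 for AT4G10270, -0.82 to 2.92 for AT4G27450 and -2.22 to 4.87 for AT4G39675. The median class difference ran from 2.35 to 3.21.

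Of the 9 genes, 1 passed in lab minus wild lines, against 0 with no filter, 6 with the class by dose term and between 0 and 3 with an array or line left out. The shares over all probe sets were 15.9% in the main fit, 2.02% with no filter and 14.2% with the class by dose term. The 3 genes without the lab calcicole at 1 mM were AT4G39675, AT1G33055 and AT4G27450. In the lab pair 2 passed with the class by dose term, where 4.13% of all tested probe sets did. Over all probe sets the CaCl2 response called 2, against 0 with no filter or with the class by dose term, 1 with centred arrays, 41 with 16 added, 32 with a mean-variance trend, 103 at a threshold of 0.1 and 10 over probe sets naming 1 gene. The lab pair called 618, against 129 with no filter, 1438 at 0.1 and 298 over probe sets naming 1 gene. The wild pair called 45, against 12, 100 and 28. Lab minus wild lines called 2169, against 460, 3516 and 1083. With an array or line left out these counts ran from 0 to 78, 123 to 509, 9 to 46 and 518 to 2240, and fewer samples leave fewer residual degrees of freedom. The array number and signals near the added constant limit what can be seen.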
